A study of Mus musculus with 8 samples.

Results

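The small leucine-rich proteoglycans are secreted matrix proteins built from leucine-rich repeats, and 10 of their genes were followed here: Dcn, Bgn, Aspn, Fmod, Lum, Prelp, Omd, Epyc, Ogn and Podn. They were found by symbol among the 50600 genes of the authors' tables, where each symbol stands on 1 row. All 10 had enough counts to be tested, among 14830 tested genes.

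RNA sequencing was done on C57BL/6 mouse embryonic fibroblasts, all of which were transduced with GHMT retroviruses, which carry Gata4, Hand2, Mef2c and Tbx5 and turn fibroblasts towards heart muscle cells. For 7 days the cells were in 1% DMSO, in 5 µM I-CBP112, in 5 µM C646 or in 0.1% ethanol, with 2 libraries for each treatment. I-CBP112 binds the bromodomain of the acetyltransferases CBP and p300, and C646 blocks their catalytic site. There were no cells without the viruses among these groups, and neither the share of cells that took them up nor the solvent of the inhibitors is given in the sources used here. Whether the 2 libraries of a group came from separate cultures is not given there either, so the errors measure the spread between libraries, which may be technical.

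In tissue these proteins sit on collagen fibrils and set their diameter and spacing, and several bind growth factors such as TGF-beta. Their sugar chains differ by class. In class I, Dcn (decorin) and Bgn (biglycan) carry chondroitin or dermatan sulfate, while Aspn (asporin) has a run of aspartates in place of the chains. In class II, Fmod (fibromodulin), Lum (lumican) and Omd (osteomodulin) can carry keratan sulfate, and Prelp also binds heparan sulfate. Class III holds Epyc (epiphycan), known from growth plate cartilage, and Ogn (osteoglycin, or mimecan). Podn (podocan) belongs to class V and is known from kidney podocytes and vessel walls. Decorin, lumican and collagen genes are high in most cultured fibroblasts.

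The values come from the authors' deposited tables, which compare DMSO, I-CBP112 and C646 with 1 common group, read here as ethanol, since every other treatment has a table of its own. They hold fold changes and a mean over all 8 libraries but no values per library, so each level below is a group mean rebuilt from these and has no spread of its own. The errors after ± are standard errors (SE) of the log2 differences. Their median over all tested genes was 0.185 for each treatment, and for the 10 genes against ethanol they ran from 0.123 to 0.323. The summed mean count over all genes was 38000000. All 8 fibroblast markers were detected, with mean normalised counts from 3346 to 348364.

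The promoters of 4 genes are shown because they stand for the patterns seen below: Epyc and Fmod were lower with both DMSO and I-CBP112, Ogn was higher with DMSO, and Aspn did not pass the test in any comparison. Each line gives the 250 bases before the RefSeq transcription start on GRCm38.p6, 5′ to 3′, all on the plus strand, with motif matches in capitals. The lines cover chr10:97643818-97644067 for Epyc (its first start site), chr1:134037004-134037253 for Fmod, chr13:49607765-49608014 for Ogn and chr13:49544193-49544442 for Aspn.
Epyc: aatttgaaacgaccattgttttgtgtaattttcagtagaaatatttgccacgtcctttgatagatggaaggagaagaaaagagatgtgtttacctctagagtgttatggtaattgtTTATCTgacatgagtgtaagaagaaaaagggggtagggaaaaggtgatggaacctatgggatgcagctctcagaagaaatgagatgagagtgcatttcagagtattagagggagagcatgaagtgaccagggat
Fmod: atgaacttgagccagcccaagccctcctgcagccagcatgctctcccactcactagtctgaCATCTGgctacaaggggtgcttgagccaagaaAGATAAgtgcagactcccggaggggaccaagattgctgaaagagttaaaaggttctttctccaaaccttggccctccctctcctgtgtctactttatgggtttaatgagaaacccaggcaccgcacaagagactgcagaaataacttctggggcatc
Ogn: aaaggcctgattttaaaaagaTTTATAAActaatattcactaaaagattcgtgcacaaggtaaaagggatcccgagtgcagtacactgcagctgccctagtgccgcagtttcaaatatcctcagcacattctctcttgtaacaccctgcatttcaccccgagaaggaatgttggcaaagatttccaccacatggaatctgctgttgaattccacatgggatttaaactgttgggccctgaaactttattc
Aspn: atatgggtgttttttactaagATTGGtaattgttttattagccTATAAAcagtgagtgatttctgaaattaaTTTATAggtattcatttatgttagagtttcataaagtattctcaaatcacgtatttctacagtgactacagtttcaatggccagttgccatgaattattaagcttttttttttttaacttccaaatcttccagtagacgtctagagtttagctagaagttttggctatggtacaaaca
RefSeq windows were at hand for 8 of the 10 genes, without Dcn and Lum. Short motifs were searched on both strands of each window. For the GATA factors, to which the transduced Gata4 belongs, the letters were AGATAA. For the E-box bound by HAND proteins with their partners they were CAGATG. For T-box factors such as Tbx5 the search used AGGTGT. The AP-1 site, bound by Fos and Jun proteins, was written as TGANTCA. Among core promoter elements, the TATA box near many transcription starts was searched as TATAAA. The GC box, which Sp1 and its relatives bind, was searched as GGGCGG. The CCAAT box was searched by the letters of its name. Positions count back from -1, the base before the start. Epyc held a GATA match at -134 to -129 on the minus strand. Fmod held one at -157 to -152 on the plus strand and a HAND-type E-box at -189 to -184 on the minus strand. GATA matches occurred in 9.99% and HAND-type E-boxes in 14.4% of all 32851 windows of this length. Ogn held TATA box letters on both strands, overlapping, at -229 to -222. Aspn held them at -207 on the plus strand and at -178 on the minus strand, and a CCAAT box at -229 on the minus strand. TATA box letters occurred in 12.4% and a CCAAT box in 33.8% of all windows. The window of the second Epyc start also held a GATA match, at -135 to -130 on the plus strand, and that of Prelp a CCAAT box at -15 to -11 on the plus strand. The first Podn window held a HAND-type E-box at -82 to -77 on the plus strand. No match was found in the Omd window, and the Bgn and first Podn windows held GC boxes, as did 32.7% of windows. An AP-1 match, present in 6.75% of windows, was found in none of the 8 genes, and a T-box match, present in 11.8%, only in the window of the second Podn start. These are letters in a window and were not tested for binding.

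The 10 genes differed widely in level. On a per-length scale with ethanol, Dcn had 41908 normalised counts per kb of its longest coding transcript and ranked at 14 of 18964 coding genes. Ogn followed with 19486 per kb at rank 50, then Aspn with 11374 at rank 131 and Bgn with 11367 at rank 132. Lum had 8378 per kb (rank 193) and Prelp 2230 (rank 821). Podn, at 743 per kb, Fmod, at 463, Omd, at 248, and Epyc, at 99.4, were lower and held ranks from 2697 to 9405. Aspn and Bgn lay too close to be put in order. Counted over the merged exons of all transcripts instead, a choice made after seeing the data, Ogn came before Dcn, with 19486 against 12620 per kb, and Lum before Bgn, with 8378 against 4509.

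Summed over the 10 genes, the levels came to 187437 normalised counts with DMSO, 140906 with I-CBP112, 212478 with C646 and 210841 with ethanol. That was 88.9%, 66.8% and 101% of the ethanol sum for DMSO, I-CBP112 and C646. Ogn held 36.9% of the sum with DMSO, 33.6% with I-CBP112, 23.4% with C646 and 23.7% with ethanol, so it moved the total. Without Ogn, the other 9 summed to 73.5% of the ethanol value with DMSO and to 58.2% with I-CBP112, while C646 gave 101%. In bulk RNA, fewer cells of a type and less RNA per cell cannot be told apart.

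**Figure D1:**
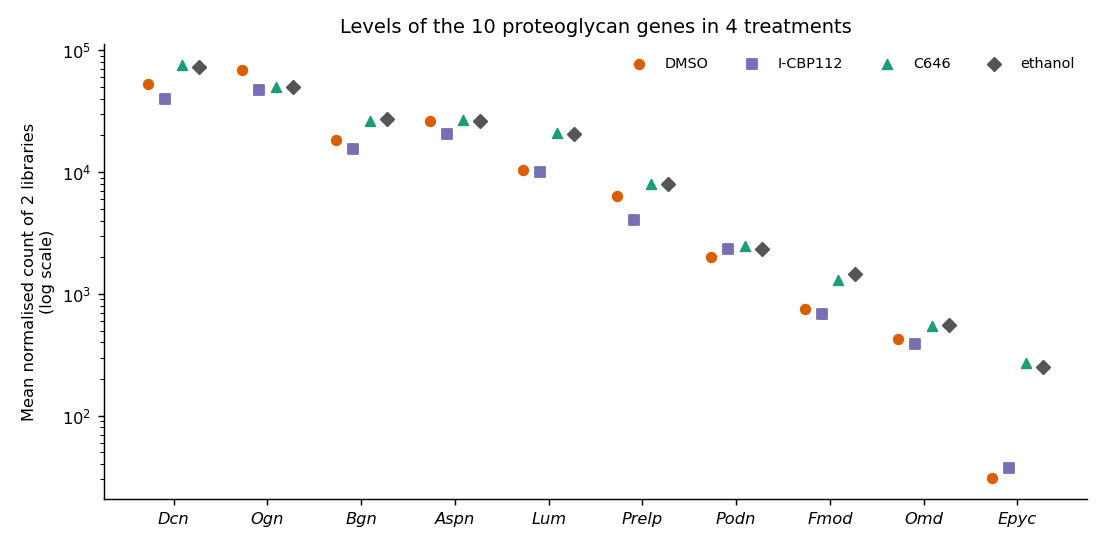
Mean normalised count (log axis) of each of the 10 genes with DMSO, I-CBP112, C646 and ethanol, each point a mean of 2 libraries rebuilt from the tables. C646 and ethanol lie close together for every gene. DMSO and I-CBP112 lie below them for every gene but Ogn, though only just for Aspn with DMSO and Podn with I-CBP112. Ogn with DMSO, at 69141, is above its other 3 values.

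Cells in DMSO were first set against cells in ethanol, which asks how a common solvent bears on these genes during reprogramming. Of the 10 genes, 5 fell (Epyc, Lum, Fmod, Bgn and Dcn) and 1 rose (Ogn) (DESeq2 Wald test of the authors' deposited table, adjusted p below 0.05). Over all 14830 tested genes 7.9% fell and 8.07% rose. The median log2 fold change of the 10 was -0.43, beside 0.03 for all tested genes.

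Among the class I genes, Dcn averaged 53384 normalised counts with DMSO and 73674 with ethanol. Its log2 fold change in the authors' deposited table was -0.46 ± 0.12 (adjusted p = 0.00203). Bgn averaged 18487 with DMSO and 27498 with ethanol, a log2 fold change of -0.57 ± 0.13 in the authors' deposited table (adjusted p = 0.000276). Dcn was thus at 72.5% and Bgn at 67.2% of its ethanol level. Aspn, of the same class, had 26381 with DMSO and 26491 with ethanol, and its log2 fold change in the authors' deposited table was -0.01 ± 0.16 (adjusted p = 0.99, 95% interval -0.32 to 0.30).

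In class II, Lum had 10470 normalised counts with DMSO and 20509 with ethanol, and Fmod had 746 with DMSO and 1443 with ethanol. Lum was at 51.1% and Fmod at 51.7% of its ethanol level. The authors' deposited table gives Lum a log2 fold change of -0.97 ± 0.14 (adjusted p = 5.8e-10) and Fmod one of -0.95 ± 0.20 (adjusted p = 4.39e-05). The other class II genes did not pass. Prelp had 6366 with DMSO and 8063 with ethanol, at -0.34 ± 0.14 in the authors' deposited table (adjusted p = 0.077), and Omd had 426 with DMSO and 557 with ethanol, at -0.39 ± 0.18 (adjusted p = 0.149). Centred on the median gene, Prelp passed (adjusted p = 0.046).

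Both class III genes changed, in opposite directions. Epyc, the least abundant of the 10, had 30.6 normalised counts with DMSO and 252 with ethanol, 8.25 times lower with DMSO. Its log2 fold change of -3.04 ± 0.32 in the authors' deposited table (adjusted p = 8.99e-19) was the largest in size among the 10 genes. Ogn, which ranked second per kb, had 69141 with DMSO and 50000 with ethanol and was the only one to rise, at 0.47 ± 0.16 in the authors' deposited table (adjusted p = 0.0286). Adjusted over all genes with counts, with no filter on low counts, its p was 0.0642. Podn, of class V, had 2005 with DMSO and 2354 with ethanol, at -0.23 ± 0.14 in the authors' deposited table (adjusted p = 0.275).

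Markers of other cells moved in the same comparison. The summed level of 8 fibroblast markers with DMSO was 66.2% of that with ethanol and that of 8 cardiomyocyte markers 260%. For cell types known for some of these proteoglycans the sums were 76.1% for 8 chondrocyte markers, 40.8% for 4 tenocyte markers, 34.9% for 6 osteoblast markers and 68.4% for 5 smooth muscle markers. Each sum follows its most abundant members, such as Col3a1 among the fibroblast and Thbs4 among the tenocyte markers. Taken singly, 6 of 8 fibroblast, 3 of 4 tenocyte and 5 of 5 smooth muscle markers fell, beside 7.9% of all tested genes. Of the 8 cardiomyocyte markers 6 rose, beside 8.07%. The members of the chondrocyte list went opposite ways. Col11a2, a chain of collagen XI, rose with a log2 fold change of 1.79 ± 0.47 (adjusted p = 0.00169), while the transcription factor Sox9 (-1.04 ± 0.23), Col9a1 (-3.02 ± 0.55) and Hapln1 (-1.73 ± 0.43) fell in the authors' deposited table. The sums of the endothelial and macrophage lists, of 5 markers each, were 58.1% and 88.1%. No marker was at 0, but Col2a1, Acan and Matn1 of cartilage, Sp7, Bglap, Ibsp and Dmp1 of bone and Pecam1, Cdh5 and Tie1 of endothelium were too low to be tested. Their part in the result was not tested. When the Wald statistic was read on a t distribution (4 degrees of freedom), none of the 6 calls passed (lowest adjusted p = 0.143, for Epyc). No gene of the partner lists below passed it either, Eln included, so this strict reading does not set these proteoglycans apart. The share of all tested genes that pass it is not given here.

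**Figure D2:**
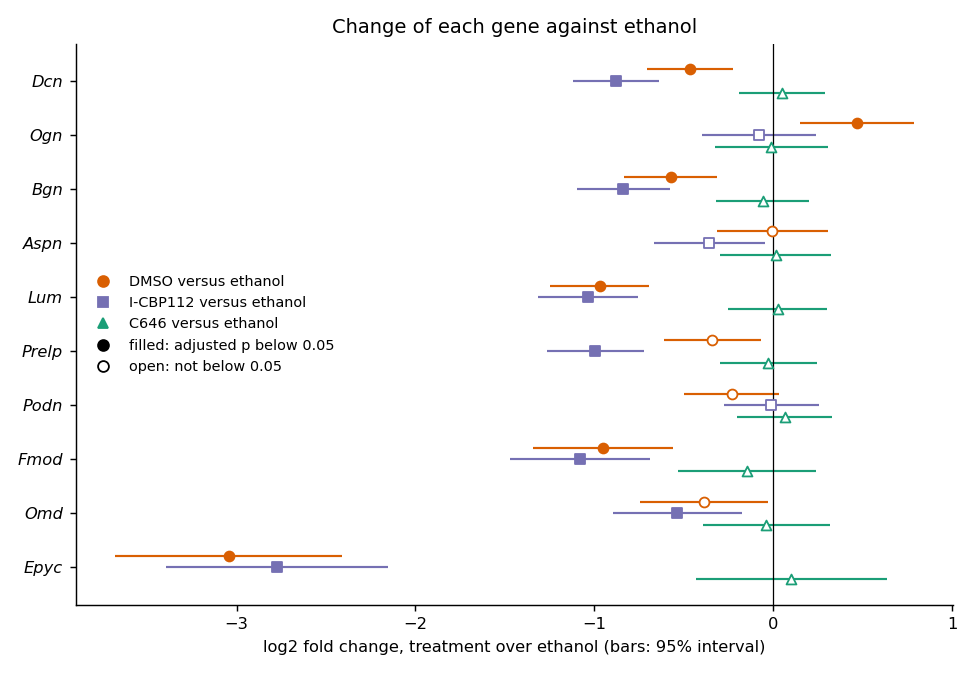
Log2 fold change of each gene (treatment over ethanol, from the authors' deposited tables) with 95% intervals for DMSO, I-CBP112 and C646. Filled points have an adjusted p below 0.05; Epyc lies near -3 with DMSO and with I-CBP112, Ogn is above 0 with DMSO, and all C646 intervals include 0.

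Cells in I-CBP112 were set against cells in ethanol to ask how this bromodomain inhibitor bears on the same genes. Of the 10 genes, 7 fell and 0 rose in the authors' deposited table (DESeq2 Wald test), against 5.25% of all tested genes that fell and 4.65% that rose. All 10 log2 fold changes were below 0, and 8 of the 10 had an unadjusted p below 0.05, as had 19.3% of all tested genes. The median of the 10 was -0.86, beside 0.02 for all tested genes.

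Dcn averaged 40061 normalised counts with I-CBP112 and 73674 with ethanol, and Bgn averaged 15381 with I-CBP112 and 27498 with ethanol. Dcn was at 54.4% and Bgn at 55.9% of its ethanol level. The authors' deposited table has Dcn at -0.88 ± 0.12 (adjusted p = 1.09e-10) and Bgn at -0.84 ± 0.13 (adjusted p = 2.27e-08). Aspn had 20678 with I-CBP112 and 26491 with ethanol and did not pass, at -0.36 ± 0.16 in the authors' deposited table (adjusted p = 0.155).

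All 4 class II genes fell. Fmod had 682 normalised counts with I-CBP112 and 1443 with ethanol, Lum 10002 with I-CBP112 and 20509 with ethanol, and Prelp 4050 with I-CBP112 and 8063 with ethanol. These were at 47.3%, 48.8% and 50.2% of their ethanol levels for Fmod, Lum and Prelp. The authors' deposited table has Fmod at -1.08 ± 0.20 (adjusted p = 3.57e-06), Lum at -1.04 ± 0.14 (adjusted p = 4.32e-11) and Prelp at -0.99 ± 0.14 (adjusted p = 1.25e-10). Omd was closer to the threshold, with 384 with I-CBP112 and 557 with ethanol and -0.54 ± 0.18 in the authors' deposited table (adjusted p = 0.0396). Its adjusted p was 0.0895 with no filter on low counts and 0.0516 scaled to summed group means.

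Epyc, the cartilage gene, had 36.9 normalised counts with I-CBP112 and 252 with ethanol, 6.85 times lower with I-CBP112, at -2.78 ± 0.32 in the authors' deposited table (adjusted p = 5.3e-16). Ogn, of the same class, had 47293 with I-CBP112 and 50000 with ethanol, at -0.08 ± 0.16 in the authors' deposited table (adjusted p = 0.898, 95% interval -0.40 to 0.24). Podn had 2338 with I-CBP112 and 2354 with ethanol, at -0.01 ± 0.14 in the authors' deposited table (adjusted p = 0.988). Scaled to summed group means, its difference was 0.01.

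The marker sums with I-CBP112 were 60.5% of ethanol for fibroblast, 281% for cardiomyocyte, 51.3% for chondrocyte, 66.1% for tenocyte, 46.6% for osteoblast and 103% for smooth muscle markers. Those of the endothelial and macrophage lists were 65.6% and 79.4%. Taken singly, 5 of 8 fibroblast, 4 of 5 tested chondrocyte, 1 of 4 tenocyte and 1 of 5 smooth muscle markers fell. That stood beside 5.25% of all tested genes. All 8 cardiomyocyte markers rose, beside 4.65%. Not every marker thus followed the sum of its list. Their part in the result was not tested. With the t distribution none of the 7 calls passed (lowest adjusted p = 0.242, for Epyc).

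C646, the inhibitor of the catalytic site, was likewise set against ethanol. These RNA data hold no measure of whether either inhibitor acted on its target in the cells. None of the 10 genes was called in the authors' deposited table (DESeq2 Wald test), where 2 of all 34250 genes with counts were called, 0.00584%. By the same DESeq2 test, 0 of the 10 had an unadjusted p below 0.05, and 0.748% of the 14830 tested genes did. Where no gene differs, a share of about 0.05 of the genes is expected there. The standard errors thus look too wide for this comparison, and why was not tested. Those with DMSO and with I-CBP112 had the same median over all tested genes, 0.185, so their width is not particular to C646. Whether they are too wide there was not tested. The log2 fold changes of the 10 ran from -0.15 (Fmod) to 0.10 (Epyc) in the authors' deposited table, 5 below 0 and 5 above. Dcn averaged 76351 normalised counts with C646 and 73674 with ethanol, Lum 20858 with C646 and 20509 with ethanol, Ogn 49636 with C646 and 50000 with ethanol, and Epyc 271 with C646 and 252 with ethanol. The 95% interval of the Dcn difference was -0.19 to 0.29 and that of the Epyc difference -0.43 to 0.64. Smaller changes than these were not detectable with 2 libraries in each group and errors of this width. The marker sums with C646 lay between 92.9% and 114% of ethanol.

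The treatments were then set against each other, in 3 pairs, by the difference of the fold changes over a rebuilt standard error, with the normal p adjusted (Benjamini-Hochberg) over the 14830 tested genes. I-CBP112 and C646 were both at 5 µM for 7 days, so their molar concentration and time match, but their potency in these cells was not measured. DMSO was at 1%. The 3 pairs share libraries with each other and with the comparisons above.

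Against C646, I-CBP112 had 6 of the 10 genes lower and none higher, where 5.11% of all tested genes were lower and 4.69% higher; 8 of the 10 had an unadjusted p below 0.05 by the same test, as had 19.0% of all tested genes. Epyc differed by -2.88 ± 0.31 (adjusted p = 2.02e-17), with 36.9 normalised counts with I-CBP112 and 271 with C646. Lum differed by -1.06 ± 0.14 (adjusted p = 1.28e-11), Prelp by -0.97 ± 0.14 (adjusted p = 4.36e-10), Fmod by -0.93 ± 0.20 (adjusted p = 0.000105), Dcn by -0.93 ± 0.12 (adjusted p = 5.54e-12) and Bgn by -0.78 ± 0.13 (adjusted p = 2.93e-07). Omd differed by -0.50 (95% interval -0.86 to -0.14, adjusted p = 0.0645) and Aspn by -0.37 (-0.68 to -0.06, adjusted p = 0.137). For Ogn the difference was -0.07 (-0.39 to 0.25) and for Podn -0.07 (-0.34 to 0.19), and neither passed.

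Against DMSO, I-CBP112 had 3 of the 10 genes lower and none higher, where 2.66% of tested genes were lower and 4.31% higher; 5 of the 10 had an unadjusted p below 0.05 by the same test, as had 17.3% of all tested genes. Prelp had 4050 normalised counts with I-CBP112 and 6366 with DMSO, a difference of -0.65 ± 0.14 (adjusted p = 0.000172). Ogn had 47293 with I-CBP112 and 69141 with DMSO, at -0.55 ± 0.16 (adjusted p = 0.0155). Dcn had 40061 with I-CBP112 and 53384 with DMSO, at -0.41 ± 0.12 (adjusted p = 0.0161). With an upper bound of the standard error none of these passed, with adjusted p of 0.0545 for Prelp, 0.36 for Ogn and 0.365 for Dcn. This bound combines both deposited errors as if independent, although both hold the ethanol libraries, so it is wider than the rebuilt error. The share of all tested genes that pass with this bound is not given. The genes lowest against ethanol in both treatments were not told apart here: Epyc differed by 0.27 (95% interval -0.44 to 0.97), Lum by -0.07 (-0.34 to 0.21) and Fmod by -0.13 (-0.52 to 0.27).

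C646 set against DMSO had 5 of the 10 genes higher and 1 lower, where 7.98% of tested genes were higher and 7.86% lower. Epyc differed by 3.15 ± 0.32 (adjusted p = 5.5e-20), with 271 normalised counts with C646 and 30.6 with DMSO. Lum differed by 0.99 ± 0.14 (adjusted p = 1.96e-10), Fmod by 0.81 ± 0.20 (adjusted p = 0.000863), Dcn by 0.52 ± 0.12 (adjusted p = 0.000462) and Bgn by 0.51 ± 0.13 (adjusted p = 0.00151). Ogn was the lower one, with 49636 with C646 and 69141 with DMSO, at -0.48 ± 0.16 (adjusted p = 0.0245). Only Epyc and Lum passed with the upper bound of the standard error, where the adjusted p was 0.0514 for Dcn, 0.0659 for Fmod, 0.0864 for Bgn and 0.287 for Ogn. With the t distribution none of the 10 genes passed in any of the 3 pairs.

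**Figure D3:**
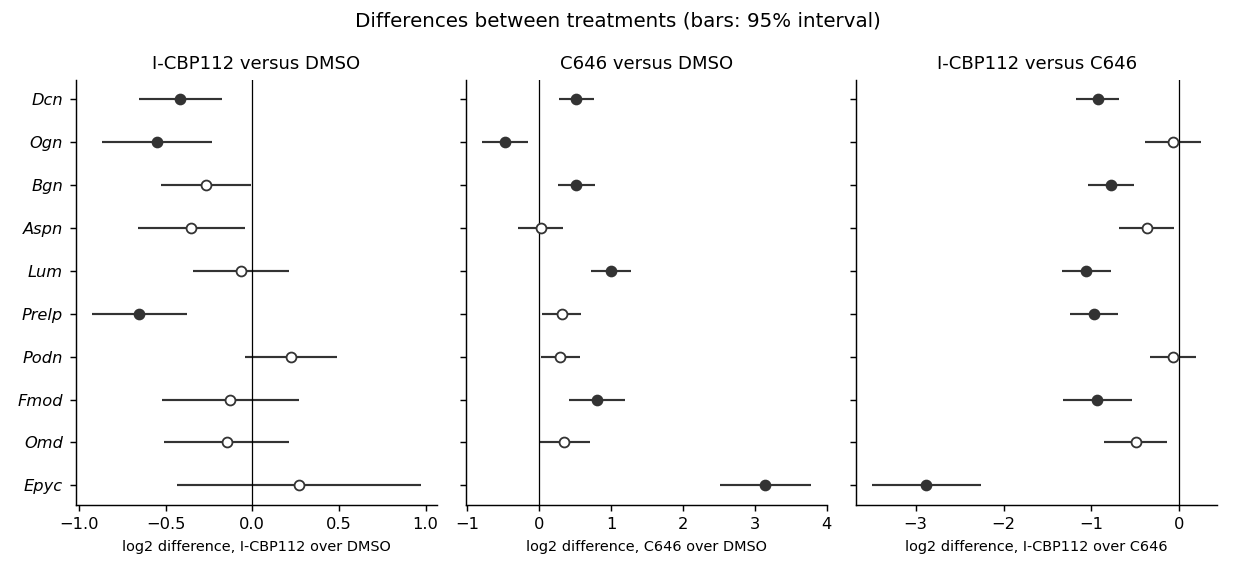
Log2 difference of each gene with 95% intervals for I-CBP112 over DMSO, C646 over DMSO and I-CBP112 over C646; filled points have an adjusted p below 0.05. I-CBP112 is below C646 for 6 genes and below DMSO for Dcn, Ogn and Prelp, and the horizontal scales differ between panels.

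Apart from Bgn and Podn, the genes lie in 3 short stretches of the genome (GENCODE M21, GRCm38). Dcn, Lum and Epyc follow each other on the plus strand of chromosome 10, from 97479609 to 97682454, with the family member Kera between Lum and Epyc. All 3 fell with DMSO and with I-CBP112. For Dcn, Lum and Epyc in that order, they fell by 0.46, 0.97 and 3.04 with DMSO and by 0.88, 1.04 and 2.78 with I-CBP112 (log2 scale, the authors' deposited table). The differences between these 3 genes were not tested, and with I-CBP112 the values of Dcn (SE 0.12) and Lum (SE 0.14) lay close together. Kera, with a mean normalised count of 4.48, was too low to be tested. Btg1, the nearest coding gene before Dcn and more than 500 kb away, rose with DMSO (0.46 ± 0.13, adjusted p = 0.00453) and with I-CBP112 (0.37 ± 0.13, adjusted p = 0.0486) in the authors' deposited table. Part of the Epyc exons, 40.6%, overlaps an antisense lincRNA, Gm10754, whose own mean normalised count was 0.14.

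On chromosome 13, Aspn, Omd and Ogn lie in a row from 49544443 to 49624501 on the plus strand, inside the gene Cenpp of the minus strand. With DMSO Ogn rose while Aspn and Omd did not pass, and with I-CBP112 Omd fell while Aspn and Ogn did not pass. All 3 were below 0 with I-CBP112, and the differences between these genes were not tested. Ecm2, a related gene just before Aspn, fell with DMSO in the authors' deposited table (-0.90 ± 0.29, adjusted p = 0.0151) and was at -0.53 ± 0.28 with I-CBP112 (adjusted p = 0.295). Cenpp itself, at a mean normalised count of 40.5, was at 0.18 ± 0.50 with DMSO and 0.01 ± 0.50 with I-CBP112 in the authors' deposited table. Iars, further on, fell with I-CBP112 (-0.47 ± 0.12, adjusted p = 0.00285 in the authors' deposited table).

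On chromosome 1, Prelp (minus strand) and Fmod (plus strand) lie between 133910304 and 134048277, with Optc next to Prelp. Both fell with I-CBP112, and with DMSO only Fmod passed. Their nearest tested coding neighbours, Atp2b4 and Btg2, did not pass with any treatment. An antisense gene, Gm15851, overlaps 9.68% of the Prelp exons and had a mean normalised count of 8.59. Bgn lies alone on chromosome X (73483602 to 73495933, plus strand) and Podn on chromosome 4 (108014791 to 108096445, minus strand).

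**Figure D4:**
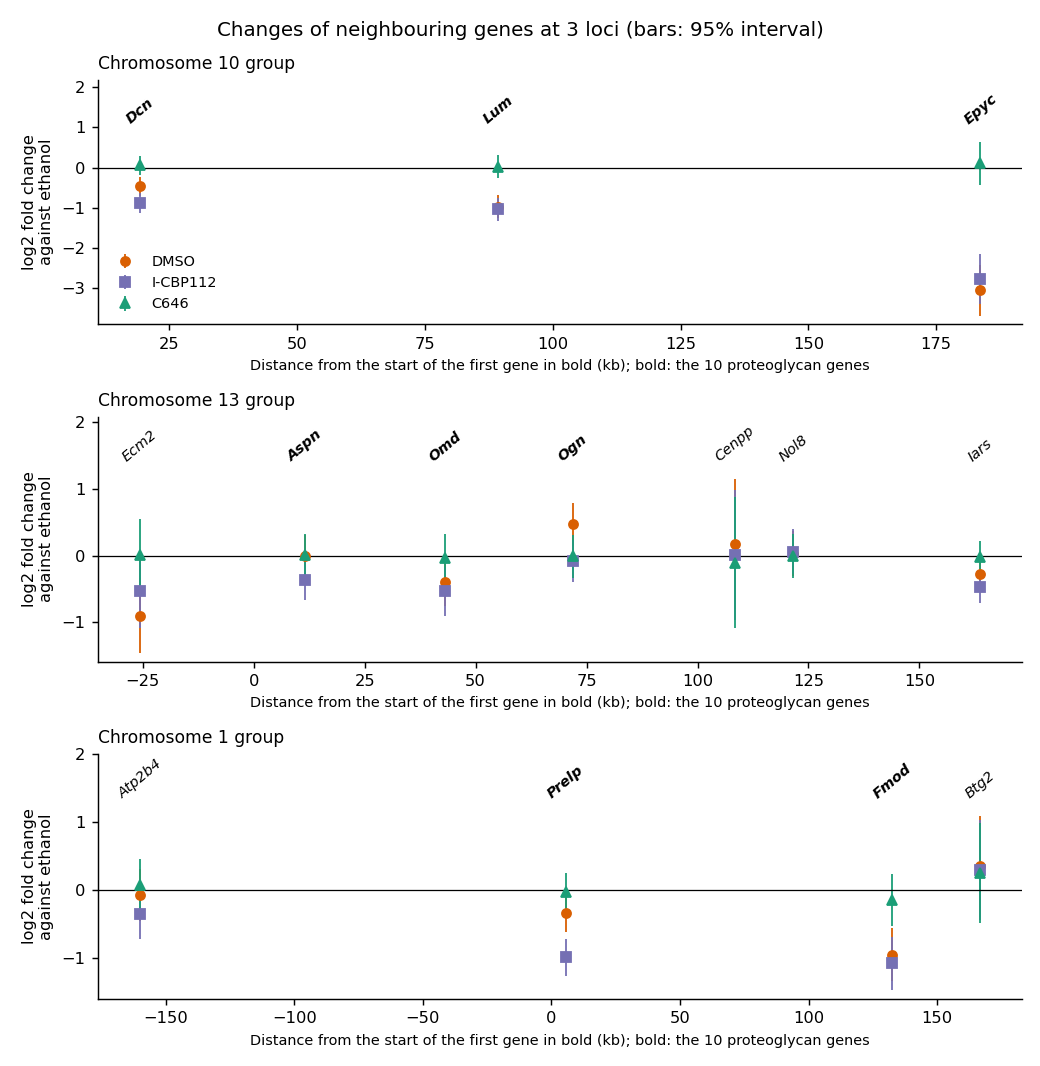
Log2 fold change against ethanol with 95% intervals at the 3 stretches, placed by distance in kb from the start of the first proteoglycan gene (gene centre; Cenpp at its start site), with tested neighbours in plain type. Dcn, Lum and Epyc all lie below 0 with DMSO and I-CBP112, and of Aspn, Omd and Ogn only Ogn with DMSO is above 0 in these treatments.

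Of 8 further family genes, Ecm2, Chadl and Tsku were tested. Tsku (tsukushi), a secreted BMP and Wnt modulator, was at -0.34 ± 0.16 with DMSO (adjusted p = 0.139) and -0.37 ± 0.16 with I-CBP112 (adjusted p = 0.145) in the authors' deposited table. Kera, Optc, Chad, Nyx and Podnl1 had mean normalised counts from 4.48 to 22.7, below the 26.1 at which testing began.

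Partners in the matrix were read from the same tables. Of 17 tested fibrillar collagens and fibril partners, 9 fell with DMSO (52.9%) and 12 with I-CBP112 (70.6%), beside 7.9% and 5.25% of all tested genes. The medians of the list were -0.38 with DMSO and -0.64 with I-CBP112. Eln (elastin) was lowest in both, at -2.12 ± 0.12 with DMSO (adjusted p = 2.06e-66) and -1.38 ± 0.12 with I-CBP112 (adjusted p = 1.12e-27) in the authors' deposited table. Col14a1, a fibril-associated collagen that binds decorin, fell with DMSO by 1.37 ± 0.21 (adjusted p = 1.93e-09), and Col1a2, a chain of collagen I, fell with I-CBP112 by 0.93 ± 0.12 (adjusted p = 1.36e-13, both from the authors' deposited table). Several of these collagens also stand in the fibroblast marker list.

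The next lists hold enzymes that build the sugar chains. Of 21 tested chondroitin and dermatan sulfate enzymes, 4 rose and 1 fell with DMSO, and 1 rose and 2 fell with I-CBP112. As shares, 19.0% rose and 4.76% fell with DMSO, beside 8.07% and 7.9% of all tested genes, and 4.76% rose and 9.52% fell with I-CBP112, beside 4.65% and 5.25%. Dse, an epimerase that turns chondroitin into dermatan sulfate, fell with DMSO (-0.37 ± 0.12, adjusted p = 0.0232) and with I-CBP112 (-0.70 ± 0.12, adjusted p = 1.33e-06) in the authors' deposited table. Chst11, a chondroitin 4-sulfotransferase, rose with DMSO (0.73 ± 0.17, adjusted p = 0.000317) and with I-CBP112 (1.01 ± 0.17, adjusted p = 2.03e-07) in the authors' deposited table. Chpf, a chondroitin polymerizing factor, rose with DMSO (0.60 ± 0.12, adjusted p = 1.74e-05), and the sulfotransferase Chst7 fell with I-CBP112 (-0.69 ± 0.19, adjusted p = 0.00565) in the authors' deposited table. Of 7 tested keratan sulfate enzymes 1 passed with DMSO and 2 with I-CBP112, too few to read against those shares. Chst2 rose with DMSO (0.72 ± 0.16, adjusted p = 0.00018), and with I-CBP112 B3gnt2 rose (0.55 ± 0.17, adjusted p = 0.0146) and St3gal1 fell (-0.46 ± 0.15, adjusted p = 0.0236) in the authors' deposited table.

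Among 12 tested proteases and their helpers that cut such proteoglycans or free them, 1 rose and 4 fell with DMSO, and 1 rose and 5 fell with I-CBP112. The share that fell was 33.3% with DMSO and 41.7% with I-CBP112, beside 7.9% and 5.25% of all tested genes, while the 1 that rose, 8.33% of the list, stood beside 8.07% and 4.65%. Mmp3 (stromelysin) fell by 1.43 ± 0.20 with DMSO (adjusted p = 6.62e-11) and by 0.87 ± 0.20 with I-CBP112 (adjusted p = 0.000298) in the authors' deposited table. For the aggrecanase Adamts4 the authors' deposited table has a fall of 1.18 ± 0.22 with DMSO (adjusted p = 1.41e-06) and of 1.66 ± 0.22 with I-CBP112 (adjusted p = 1.07e-11). Htra1, a serine protease, rose in both, at 0.93 ± 0.12 with DMSO (adjusted p = 1.61e-13) and 0.60 ± 0.12 with I-CBP112 (adjusted p = 1.37e-05) in the authors' deposited table.

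Growth factors and receptors that these proteins bind made up another list, of which 20 were tested. With DMSO 1 of the 20 rose and 2 fell, and with I-CBP112 0 rose and 1 fell, which is near what the shares of all tested genes give (8.07% and 7.9% with DMSO, 4.65% and 5.25% with I-CBP112). Bmp2 rose with DMSO (0.94 ± 0.23, adjusted p = 0.000601) while Tgfb2 (-0.38 ± 0.14, adjusted p = 0.0459) and the receptor Tgfbr2 (-0.32 ± 0.11, adjusted p = 0.0238) fell in the authors' deposited table. With I-CBP112 only Bmp4 passed, at -0.77 ± 0.15 (adjusted p = 1.72e-05) in the authors' deposited table. Of 19 tested core proteins of other proteoglycans, 2 rose and 6 fell with DMSO, and 1 rose and 3 fell with I-CBP112. The share that fell was 31.6% with DMSO and 15.8% with I-CBP112, beside 7.9% and 5.25% of all tested genes, and the share that rose, 10.5% with DMSO and 5.26% with I-CBP112, was near the 8.07% and 4.65% of all tested genes. Cspg4 (NG2) fell by 1.22 ± 0.18 with DMSO (adjusted p = 2.72e-10) and by 1.02 ± 0.17 with I-CBP112 (adjusted p = 4.45e-07) in the authors' deposited table. Spock2, a testican, fell by 0.93 ± 0.12 with DMSO (adjusted p = 8.96e-14) and by 0.85 ± 0.12 with I-CBP112 (adjusted p = 1.66e-11), also in the authors' deposited table. Cd44, the hyaluronan receptor, rose with both, at 0.45 ± 0.15 with DMSO (adjusted p = 0.0233) and 0.44 ± 0.15 with I-CBP112 (adjusted p = 0.0403), and the syndecan Sdc2 rose with DMSO (0.31 ± 0.11, adjusted p = 0.0421), in the authors' deposited table.

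With no filter on low counts the DMSO calls of Dse, Tgfb2, Tgfbr2, Cd44 and Sdc2 and the I-CBP112 calls of St3gal1 and Cd44 were lost, and with the t distribution no gene of these lists passed. With C646, 0 of the 99 tested genes of these lists passed the DESeq2 test of the authors' deposited table, and 0 had an unadjusted p below 0.05.

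**Figure D5:**
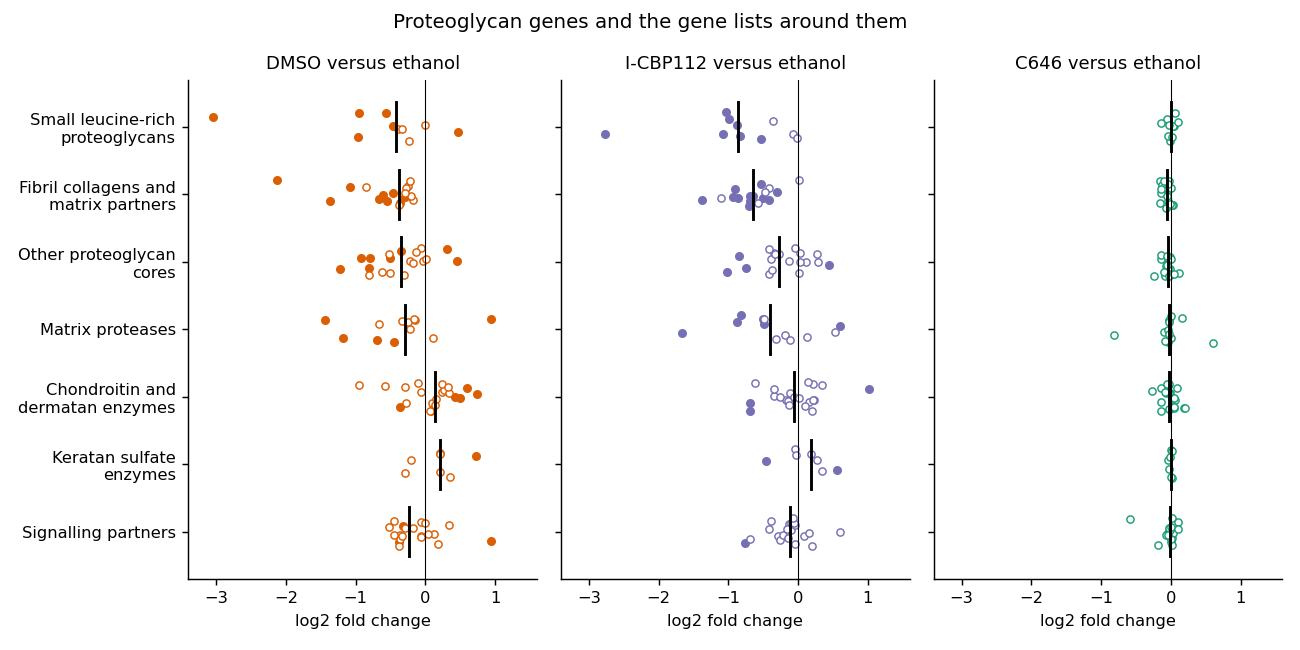
Log2 fold change against ethanol of the tested genes of each list with DMSO, I-CBP112 and C646; filled points have an adjusted p below 0.05 and the black bar is the median of the list. With DMSO and I-CBP112 the medians of the small leucine-rich proteoglycans and of the list of fibril collagens and matrix partners lie below 0. They are at -0.43 and -0.38 with DMSO and -0.86 and -0.64 with I-CBP112, and with C646 all points are open.

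For the 5 genes that passed with both DMSO and I-CBP112, the 3 genes with the most similar set of fold changes were looked up, by Euclidean distance over the 3 log2 fold changes among 12071 tested genes with a mean normalised count of at least 50. Epyc stood nearest to Aqp1 (a water channel), Mfsd2a and Mfap4 (a microfibril protein), at distances from 0.19 to 0.37. Dcn stood nearest to Ier5l, the protease gene Adamts5 and the lysyl oxidase relative Loxl3, and Bgn to Gatsl3, Ptpru and the fibroblast receptor Pdgfra. For Lum these were Pth1r, Nnmt and Hp, and for Fmod Zcchc5, Plxna2 and Mn1. The nearest distance was 0.03 for Lum (Pth1r) and 0.04 for Bgn (Gatsl3), against 0.19 for Epyc (Aqp1). The measure has 3 values per gene, all set against the same 2 ethanol libraries, and is given as a description.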

How the data were processed

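Transcripts were measured by RNA sequencing of 8 libraries in 4 groups of 2, grouped by the treatment in the labels. RNA was extracted with a Direct-zol kit and sequenced from TruSeq libraries, per the labels' protocols. Reads were quantified with kallisto 0.43.1 on GRCm38.p5 and tested with DESeq2, per the submitters' processing notes, which name no version for the authors' DESeq2. The signal in the deposited tables, baseMean, is the authors' mean normalised count over all 8 libraries. The log2 fold change and its standard error are the authors' own, and the Wald statistic, a score in the deposited tables, equals their ratio to within 3.37e-07. The p-value and adjusted p are the authors' deposited values; adjusted values cover 14830 genes with a mean of 26.1 or more with DMSO and I-CBP112, and 34250 genes with C646. Depth per library is unknown here.

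From these, group means were rebuilt as the values that give baseMean and the 3 fold changes. Differences between treatments used a standard error rebuilt with 1 dispersion per gene; applied to the deposited errors, it matched 98.9% for DMSO, 99.0% for I-CBP112 and 99.0% for C646 to within 1%, and those of the 10 genes to within 0.558%. The common group behind the fold changes is not named in the tables. Of 2312 genes with a mean under 0.16, which is about 1 count or less, 598 had counts in that group alone, so it is a group other than these 3. Positions and lengths are from GENCODE M21, in which 50376 of the 50600 identifiers were found; promoters are from RefSeq on GRCm38.p6. Ctgf was used for Ccn2.

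Named genes were all 10 proteoglycans, related genes, the genes between and next to proteoglycans that lie within 500 kb of each other and, per list and comparison, the highest 2 and lowest 2 genes past adjusted p 0.05 with a mean of 50 or more. The 10 genes and all lists were chosen with earlier results of these data known. Python 3.11.15, numpy 2.4.6, pandas 2.3.3 and scipy 1.17.1 were used. Alternatives were other sets of genes for the adjustment, centring on the median gene, scaling to summed group means, a t distribution, a 2-fold minimum and, for pairs of treatments, an upper bound of the standard error.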

Additional observations from a re-analysis of the deposited data

How the results depend on the processing

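In 300 values of single genes (10 genes, 6 comparisons, without the t distribution and the 2-fold minimum), 287 kept their direction and their side of the threshold, 11 lost their call, 1 gained one and 1 changed sign. The one that changed sign was Podn with I-CBP112 against ethanol, at 0.0111 scaled to summed group means and -0.01 as deposited. Only values with a call could lose one, and many had none, among them all 10 with C646 against ethanol. Of the settings left out, the t distribution weakened 28 of 60 values and the 2-fold minimum 9 of 30. With DMSO against ethanol, the count of genes that rose was 0 in place of 1 with no filter on low counts, with the t distribution and at a 2-fold minimum. The count that fell was 0 in place of 5 with the t distribution and 1 at a 2-fold minimum. With I-CBP112 against ethanol, 0 fell with the t distribution and 3 at a 2-fold minimum, in place of 7. For I-CBP112 against DMSO, 0 in place of 3 were lower with the t distribution and with the upper bound of the standard error. For C646 against DMSO, 0 in place of 5 were higher with the t distribution and 2 with the upper bound, and 0 in place of 1 were lower with each of these and with no filter on low counts. For I-CBP112 against C646, 0 in place of 6 were lower with the t distribution. The t distribution has 4 degrees of freedom, and against ethanol it passed no gene of the partner lists either. It therefore does not set the 10 genes apart. The upper bound of the standard error counts the ethanol libraries in both fold changes, so it is wider by design. For the remaining settings the cause was not tested. Centring on the median gene moved the values by at most 0.0346 on the log2 scale. The log2 ratio of summed means to ethanol, which scaling removed, was 0.0191 for DMSO, -0.021 for I-CBP112 and -0.0088 for C646.

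No paired analysis was possible because the tables hold no values of single libraries, although the numbers 2 and 3 recur in each group. For the same reason, refits without each library and with edgeR were not run, and which calls rest on 1 library is unknown. With 2 libraries in each group the standard errors limit what can be detected.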
